A study of Mus musculus with 9 samples.

Results

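The genes described are 39 nuclear-encoded subunits of respiratory complexes II to V, chosen by gene name out of the 55536 genes of the count tables. They comprise 4 genes of complex II, 10 of complex III with its mobile carrier cytochrome c, 11 of complex IV and 14 of complex V. Muscle of male ICR mice was sequenced in 9 RNA libraries, in 3 groups of 3; ICR is an outbred stock. Aged GW8510 mice were 18 months old and received the compound GW8510 at 2 mg/kg once a day for 14 days by intraperitoneal injection (libraries 1, 3 and 4). Aged vehicle mice were also 18 months old (libraries 1, 3 and 4), and young vehicle mice were 2 months old (libraries 2, 3 and 4). No genotype or transgene is given for any group. The muscle is not named, and nothing states that each library came from a separate animal, so p-values measure the spread between samples, which may be technical. The study asked how muscle differs with age and whether GW8510 alters aged muscle.

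Mitochondria pass electrons from succinate at complex II and from ubiquinol at complex III, through cytochrome c, to oxygen at complex IV, and complex V uses the resulting proton gradient to make ATP. Most subunits are encoded in the nucleus and joined in the organelle to a few encoded by mitochondrial DNA, except in complex II, which is wholly nuclear. Skeletal muscle holds more of these complexes in oxidative than in glycolytic fibres, and it uses muscle forms of several complex IV subunits.

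Library totals ran from 21718965 to 27437970 counts. All 39 members passed the filter on low counts, as did 14414 genes in all. Levels are given as CPM, the usual depth-scaled counts, here on TMM-scaled library totals, and always in the library order given above. Fast fibre markers were abundant in every library (9 of 9 tested, summed level 121879 to 146119 CPM in aged GW8510 muscle, 112098 to 152090.0 CPM in aged vehicle muscle and 140517 to 187816 CPM in young vehicle muscle). Aged vehicle library 4 stood apart: it held the lowest summed level of the fast fibre, slow fibre, fibroblast and tendon, endothelial, Schwann cell and smooth muscle markers. Fibroblast and tendon markers (7 of 7 tested) summed to 205, 226 and 517 CPM in the aged GW8510 libraries, 339.9, 469.5 and 68.0 CPM in the aged vehicle libraries and 1826, 2689 and 1214 CPM in the young vehicle libraries. In bulk tissue, fewer cells of a type and less RNA per cell cannot be told apart.

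Levels per transcript length, taken from the authors' TPM values, placed the members' means between 161 TPM for Cycs and 2448 TPM for Cox8b, apart from Atp5g2. In complex II, Sdhb, the iron-sulphur subunit, had the highest level at 500.3 ± 109 TPM (SD over 9 libraries of all groups). The membrane anchor Sdhd followed at 277 ± 30.7 TPM, the flavoprotein Sdha at 233 ± 26.5 TPM and the other anchor Sdhc at 228 ± 27.8 TPM. Sdhb exceeded Sdhd and Sdhd exceeded Sdha in 9 of 9 libraries, whereas Sdha exceeded Sdhc in only 5, so the last pair did not differ beyond its spread. Complex III ran from the small subunit Uqcr10 at 1425 ± 122 TPM to the catalytic cytochrome c1 gene Cyc1 at 370.4 ± 69.0 TPM, the core protein Uqcrc2 at 315 ± 43.8 TPM and Cycs, cytochrome c itself, at 161 ± 19.9 TPM. Its 5 highest members, Uqcr10, Uqcrb, Uqcr11, Uqcrh and Uqcrq, are all small subunits around the catalytic core.

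Complex IV was led by a pair of muscle forms. Cox8b averaged 2448 ± 336 TPM and Cox6a2, which it exceeded in 8 of 9 libraries, averaged 2091 ± 319 TPM. Cox7a2, the widely expressed form of subunit 7a, was lowest at 329 ± 38.5 TPM, below its muscle counterpart Cox7a1 at 1236 ± 312 TPM. In complex V the catalytic beta subunit Atp5b had the highest mean at 2340.5 ± 308 TPM, and it exceeded Atp5g1, the next by mean level, in 9 of 9 libraries. The alpha subunit Atp5a1, its partner in the catalytic head, stood at 1040.4 ± 146 TPM. Atp5g2, 1 of 3 genes that encode the same mature subunit c, was listed far below every other member at 21.8 ± 4.99 TPM. That value is uncertain, because an identical pseudogene, Gm10175, held a mean of 251 CPM against 10.1 CPM for Atp5g2 itself.

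**Figure D1:**
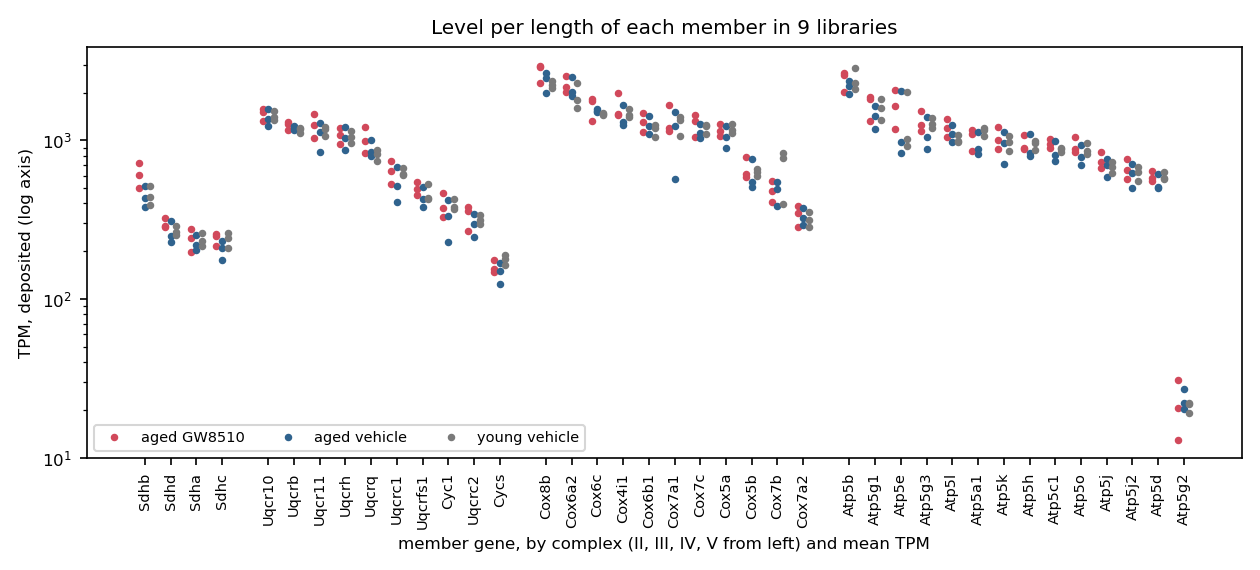
Deposited TPM (log axis) of each member in each library, ordered by complex and mean level, with aged GW8510, aged vehicle and young vehicle libraries as points from left to right within a gene. Most members lie within the spread of their neighbours in the order, and Atp5g2, whose counts may lie in part with an identical pseudogene, is listed at 13.0 to 30.9 TPM.

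The upstream regions of Sdhb, the member with the smallest p for treatment, and of the 3 subunit c genes are shown, the last because they encode 1 mature protein from 3 separate start regions. Each is the 250 bases before the RefSeq start site (GRCm38.p6), 5′ to 3′ on the gene's own strand: Sdhb on the plus strand at chr4:140961021-140961270, and on the minus strand Atp5g1 at chr11:96075632-96075881, Atp5g2 at chr15:102671048-102671297 and Atp5g3 at chr2:73911327-73911576. Capitals mark motif matches: in Sdhb and Atp5g1 the CCAAT box on either strand, in Atp5g2 the NRF1 palindrome, whose 10 capital letters are the whole motif searched, and in Atp5g3 first a CCAAT box and then, on the other strand, TCAAGGTCA, the element of the oestrogen-related receptors (ERR).
Sdhb: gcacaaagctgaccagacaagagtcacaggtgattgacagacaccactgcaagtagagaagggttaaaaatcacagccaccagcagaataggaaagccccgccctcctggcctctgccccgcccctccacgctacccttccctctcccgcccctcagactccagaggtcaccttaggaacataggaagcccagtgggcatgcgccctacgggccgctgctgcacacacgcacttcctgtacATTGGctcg
Atp5g1: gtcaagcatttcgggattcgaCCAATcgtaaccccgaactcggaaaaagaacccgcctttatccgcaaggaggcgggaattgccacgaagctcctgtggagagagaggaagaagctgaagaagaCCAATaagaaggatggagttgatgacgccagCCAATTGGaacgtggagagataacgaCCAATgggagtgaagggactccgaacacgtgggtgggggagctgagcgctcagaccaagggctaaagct
Atp5g2: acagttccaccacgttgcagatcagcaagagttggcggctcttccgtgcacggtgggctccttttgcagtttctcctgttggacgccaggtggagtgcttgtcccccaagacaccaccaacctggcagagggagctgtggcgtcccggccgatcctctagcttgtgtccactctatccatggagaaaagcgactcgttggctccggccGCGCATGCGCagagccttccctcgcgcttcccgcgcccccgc
Atp5g3: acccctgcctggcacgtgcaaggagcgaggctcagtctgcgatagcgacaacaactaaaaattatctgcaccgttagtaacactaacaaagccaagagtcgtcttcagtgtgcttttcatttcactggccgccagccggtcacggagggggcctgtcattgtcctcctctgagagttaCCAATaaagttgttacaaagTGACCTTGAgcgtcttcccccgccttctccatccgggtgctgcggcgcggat

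The RefSeq starts of Sdhb, Atp5g1 and Atp5g2 lie inside the genes as GENCODE M21 places them (first base 140961203 for Sdhb, 96075670 for Atp5g1 and 102672352 for Atp5g2), so these windows overlap the longer gene models. Each of the 3 subunit c genes held a different set of motifs. Windows of 300 bases, 250 before and 50 after the start, were found for 30 of the 39 members and searched on both strands. The windows of Sdhc, Uqcrc2, Uqcrb, Uqcrq, Cyc1, Cox4i1, Cox6a2, Cox6c and Atp5a1 were not analysed here. NRF1 is a factor known for driving genes of respiration, and its palindrome was present in 3 members (Atp5g2, Atp5k and Uqcrc1), that is 3 of 30, against 0.971% of 32851 promoters. The ERR element was present in Atp5g3 and Sdhd (6.67%, against 0.423% of all). CCGGAAGT, bound by ETS factors such as GABP, was present in Atp5h, Uqcr11 and Uqcrh (3 of 30, against 3.89% of all), and AAGATGGCG, the YY1 element, in Atp5j and Atp5j2 (6.67%, against 1.40%). The short box CCAAT was present in 16 members (53.3%, against 37.4%). No member held more than 1 of the NRF1, ERR, ETS and YY1 strings. These are matches of letters, not measured binding sites.

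The first comparison asked whether GW8510 alters the members in aged muscle. No member passed the test. Of 39 members, 0 had an adjusted p under 0.05 for aged GW8510 over aged vehicle (edgeR quasi-likelihood test, Benjamini-Hochberg adjustment over all genes), and the same held for 0.0% of all 14414 genes. DESeq2 and limma-voom also called 0 members. At an unadjusted p under 0.05 there was 1 member, Sdhb, against 4.49% of all genes. All 39 estimated log2 fold changes were above 0, against 50.8% of all genes, from 0.04 for Atp5g2 to 0.60 for Sdhb. Their median was 0.30, beside 0.01 over all genes. Adjusted p ran from 0.935 to 0.993. The count of 39 is not 39 separate observations, since the members move together from library to library, as the plot of members by library shows.

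**Figure D2:**
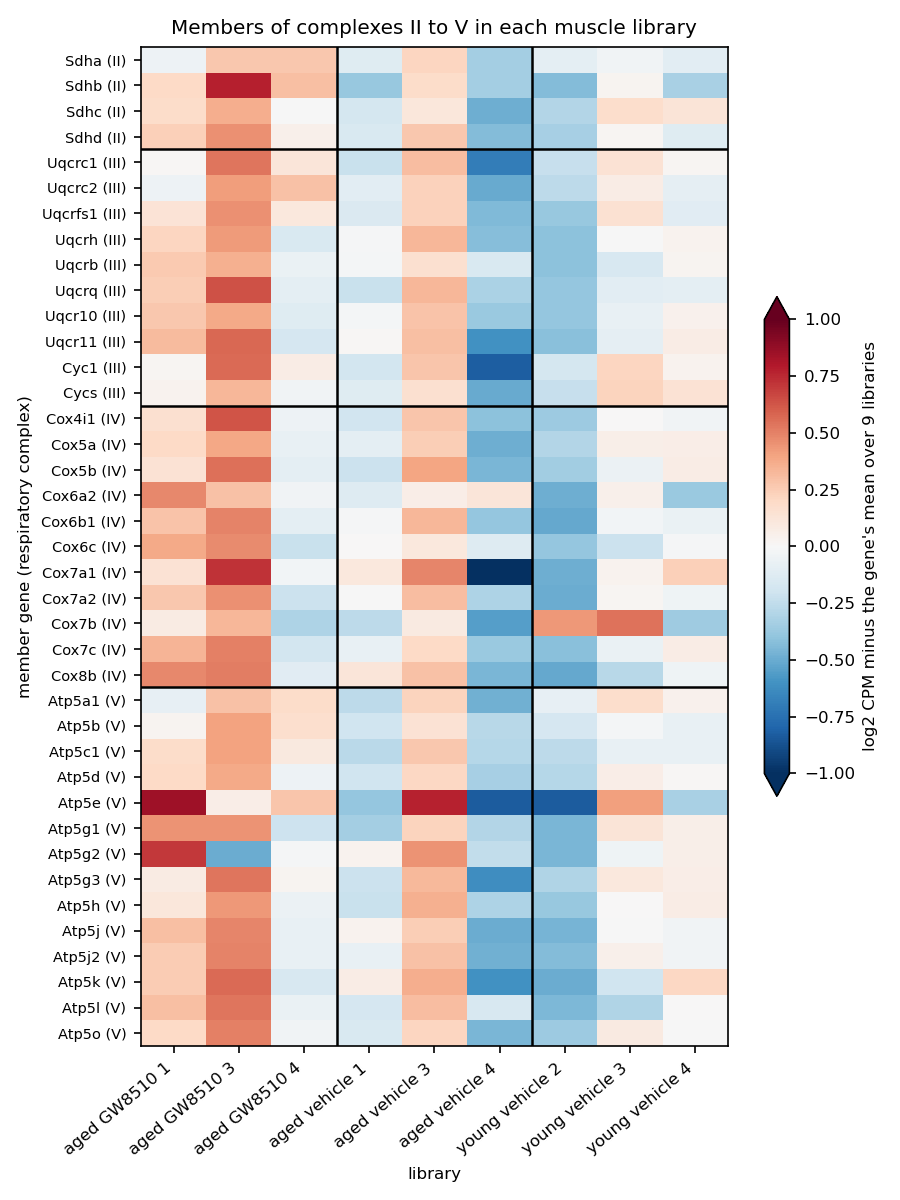
Colour gives log2 CPM minus the gene's mean over the 9 libraries, for 39 members (rows, by complex) and the aged GW8510, aged vehicle and young vehicle libraries (columns), with the colours capped at -1 and 1. Aged GW8510 library 3 is the highest library for 34 members, aged vehicle library 4 is the lowest for 24 and young vehicle library 2 for 14.

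Aged GW8510 library 3 held the highest CPM of 34 members. Aged vehicle library 4 held the lowest of 24 members and young vehicle library 2 the lowest of 14. Without aged vehicle library 4 the median over members was 0.13 and 36 of 39 lay above 0. Without aged GW8510 library 3 it was 0.16, and without both it was 0.01, with 22 above 0 and 17 below. Leaving out aged vehicle library 3 instead gave a median of 0.48, with 0 members past the adjusted threshold. At an unadjusted p under 0.05 there were then 16 of 39 members, against 1527 of the 14783 genes tested in that fit. The size of the estimate therefore moved by over 1.5 times with the choice of aged vehicle libraries.

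**Figure D3:**
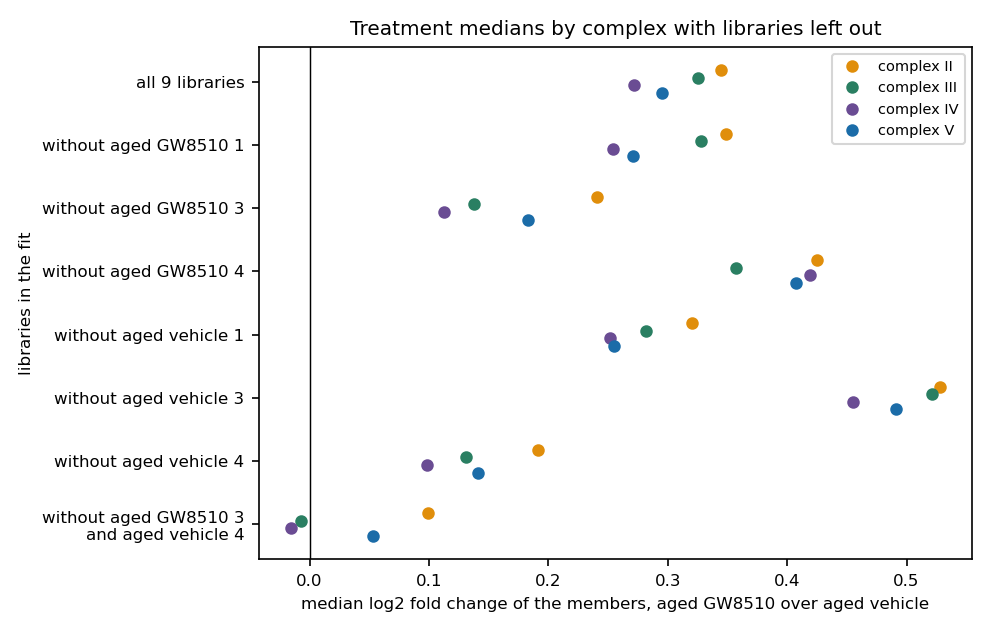
Median log2 fold change of aged GW8510 over aged vehicle within each complex (x axis, log2) for fits with all 9 libraries and with libraries left out (y axis). Without aged vehicle library 3 the medians lie between 0.46 and 0.53, and without aged GW8510 library 3 and aged vehicle library 4 together they lie between -0.02 and 0.10.

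The members' summed share of all scaled counts was 2.12, 2.57 and 1.96% in the aged GW8510 libraries, 1.69, 2.24 and 1.45% in the aged vehicle libraries and 1.57, 1.97 and 1.86% in the young vehicle libraries. Slow fibre markers (7 of 7 tested) summed to 63.8, 280.2 and 71.7 CPM in the aged GW8510 libraries, 73.1, 129 and 48.4 CPM in the aged vehicle libraries and 69.0, 65.5 and 104 CPM in the young vehicle libraries. Aged GW8510 library 3 was highest and aged vehicle library 4 lowest for this sum, as for most members. Each slow fibre marker was highest in aged GW8510 library 3, where Myl3 alone had 119 CPM. The lowest library varied: it was aged vehicle library 1 for Atp2a2, young vehicle library 2 for Tnni1 and young vehicle library 3 for Myl2. Among the fast fibre markers, Myh4 was lowest in aged GW8510 library 3, at 9502 CPM, and Myh1 highest there, at 9047 CPM. The other fast fibre markers were neither highest nor lowest in that library. The mitochondrial genome took 13.8, 18.6 and 16.6% of counts in the aged GW8510 libraries, 12.8, 16.1 and 10.6% in the aged vehicle libraries and 10.3, 10.3 and 10.6% in the young vehicle libraries. Endothelial markers (5 of 5 tested) summed to 179 to 314 CPM in aged GW8510 muscle, 162 to 210.0 CPM in aged vehicle muscle and 262 to 312 CPM in young vehicle muscle. This sum too was highest in aged GW8510 library 3 and lowest in aged vehicle library 4, though young vehicle library 2 was close to the highest at 312 CPM. Of the single genes only Pecam1 was highest in aged GW8510 library 3, at 104 CPM. Cdh5 was highest in young vehicle library 3, and Kdr, Tek and Cldn5 in young vehicle library 2. Cdh5, Kdr and Tek were lowest in aged vehicle library 4, Pecam1 in aged vehicle library 1 and Cldn5 in aged GW8510 library 1. Smooth muscle markers (4 of 4) summed to 224 to 245 CPM in aged GW8510 muscle, 89.6 to 258 CPM in aged vehicle muscle and 147 to 229.6 CPM in young vehicle muscle. Erythroid markers (5 of 5 tested) summed to 3.18, 606 and 73.9 CPM in the aged GW8510 libraries, 455, 12.2 and 22.2 CPM in the aged vehicle libraries and 91.4, 50.1 and 110.4 CPM in the young vehicle libraries, again with the highest level in aged GW8510 library 3. Heart markers (3 of 4 tested, Tnni3 not) summed to 5.90 to 12.7 CPM in aged GW8510 muscle, 2.76 to 9.65 CPM in aged vehicle muscle and 2.39 to 4.95 CPM in young vehicle muscle, with aged GW8510 library 3 highest. Among the tested heart genes only Myh6 was itself highest there, at 6.64 CPM. Nppa was highest in aged vehicle library 4, at 1.30 CPM, and Tnnt2 in aged vehicle library 3, at 6.54 CPM.

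Adipocyte markers (5 of 6 tested, Ucp1 not) summed to 246 to 367 CPM in aged GW8510 muscle, 139 to 189 CPM in aged vehicle muscle and 156 to 195 CPM in young vehicle muscle, and most of this was Fabp4, a lipid carrier also found in endothelial cells. The more specific adipocyte gene Adipoq, a secreted hormone, had 1.41, 0.531 and 18.7 CPM in the aged GW8510 libraries, 1.42, 0.491 and 2.04 CPM in the aged vehicle libraries and 5.92, 2.41 and 3.28 CPM in the young vehicle libraries. Plin1, which coats lipid droplets, had 0.409, 0.0885 and 11.3 CPM in the aged GW8510 libraries, 1.35, 0.409 and 0.39 CPM in the aged vehicle libraries and 3.69, 0.719 and 2.15 CPM in the young vehicle libraries. Both were highest in aged GW8510 library 4 and low in aged GW8510 library 3, unlike most members. Cidec and Lep were also highest in aged GW8510 library 4, at 14.3 and 1.42 CPM. Fabp4 differed, with 244, 366 and 230 CPM in the aged GW8510 libraries. It had 184, 184 and 135 CPM in the aged vehicle libraries and 150, 152 and 186 CPM in the young vehicle libraries. Fabp4 was thus highest in aged GW8510 library 3 and lowest in aged vehicle library 4, as most members were. The macrophage and leukocyte markers Ptprc, Adgre1, Cd68 and Lyz2 summed to 53.2 to 103 CPM in aged GW8510 muscle, 43.1 to 96.5 CPM in aged vehicle muscle and 53.6 to 175 CPM in young vehicle muscle, and Schwann cell markers (4 of 4) to 25.3 to 113 CPM in aged GW8510 muscle, 20.0 to 102 CPM in aged vehicle muscle and 110.5 to 159 CPM in young vehicle muscle. The part of fibre type, blood or other cells in the members' levels was not tested.

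Complex II had a treatment median of 0.34 over its 4 genes. Sdhb, which carries the iron-sulphur clusters, had 482, 719 and 515 CPM in the aged GW8510 libraries, 322, 476 and 331 CPM in the aged vehicle libraries and 310.3, 427 and 335 CPM in the young vehicle libraries. Every aged GW8510 library was above every aged vehicle library, which held for 1 of 39 members and for 3.89% of all genes, though aged vehicle library 3 at 476 CPM came within 6 CPM of aged GW8510 library 1. The means were 572 ± 128 CPM in aged GW8510 and 376 ± 86.6 CPM in aged vehicle muscle (SD, n = 3 each). The log2 fold change was 0.60 (SE 0.23, edgeR adjusted p = 0.935), and between 0.40 and 0.81 when single libraries were left out. Sdhc had 292, 331 and 257 CPM in aged GW8510 muscle, against 228, 279 and 184 CPM in aged vehicle muscle and 210.1, 290.2 and 282 CPM in young vehicle muscle, and its aged groups overlapped. Sdhd had 306, 356 and 269 CPM in aged GW8510 muscle, against 233, 312 and 192 CPM in aged vehicle muscle and 206, 263 and 238 CPM in young vehicle muscle, again with aged vehicle library 3 inside the aged GW8510 range. Log2 fold changes were 0.35 for Sdhc and 0.34 for Sdhd by edgeR (adjusted p = 0.935 for each). Sdha, the catalytic flavoprotein, had the smallest estimate of the complex at 0.23 (SE 0.18).

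Complex III had a treatment median of 0.33 over 10 genes, with estimates between 0.18 and 0.42. Cyc1, the cytochrome c1 that hands electrons to cytochrome c, had 436, 636 and 453 CPM in the aged GW8510 libraries, 378, 522 and 243 CPM in the aged vehicle libraries and 382, 501 and 441 CPM in the young vehicle libraries. Aged vehicle library 4 was the lowest of the 9 and aged GW8510 library 3 the highest, and the aged groups overlapped. Cyc1 had the largest estimate of the complex, 0.42 (SE 0.27, adjusted p = 0.935) by edgeR. The Rieske iron-sulphur protein Uqcrfs1 had 543, 676 and 532 CPM in aged GW8510 muscle, against 447, 577 and 363 CPM in aged vehicle muscle and 378, 548 and 455 CPM in young vehicle muscle. The core protein Uqcrc2 had 478, 659.6 and 605 CPM in aged GW8510 muscle, against 460.4, 579.9 and 349.6 CPM in aged vehicle muscle and 412, 522 and 465 CPM in young vehicle muscle. In both genes aged vehicle library 3 exceeded aged GW8510 library 1. Their estimates were 0.33 for Uqcrfs1 and 0.33 for Uqcrc2. The small subunit Uqcrb was steadier, with 381, 405 and 303 CPM in the aged GW8510 libraries, 312, 354 and 285 CPM in the aged vehicle libraries and 239, 283 and 322 CPM in the young vehicle libraries, and its groups overlapped (log2 fold change 0.19, SE 0.18). Cycs had 451, 552 and 428 CPM in the aged GW8510 libraries, 404, 490.2 and 309 CPM in the aged vehicle libraries and 374, 513 and 485 CPM in the young vehicle libraries. Young vehicle library 3 exceeded all but 1 of the other libraries, and the estimate for treatment was 0.25. All 10 genes of the complex were highest in aged GW8510 library 3.

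Complex IV had a treatment median of 0.27 over 11 genes, from 0.18 to 0.36. Cox4i1, a regulatory subunit present in most tissues, had 776, 1076 and 671 CPM in the aged GW8510 libraries, 609, 842 and 523 CPM in the aged vehicle libraries and 541, 697 and 679 CPM in the young vehicle libraries. Cox7c, a small membrane subunit, had 398, 446 and 277 CPM in aged GW8510 muscle, against 299, 362 and 243 CPM in aged vehicle muscle and 236, 301 and 331 CPM in young vehicle muscle. For both, aged GW8510 library 4 lay below aged vehicle library 3, so the groups overlapped. By edgeR the log2 fold change was 0.35 (SE 0.24) for Cox4i1 and 0.31 (SE 0.23) for Cox7c. Cox8b had 341, 349 and 226 CPM in the aged GW8510 libraries, 266, 299 and 179 CPM in the aged vehicle libraries and 171, 202 and 237 CPM in the young vehicle libraries. Aged GW8510 library 4 was again below aged vehicle libraries 1 and 3. Cox6a2 was an exception to the library order of the rest, with 1168, 1027 and 818 CPM in the aged GW8510 libraries, 765, 877 and 912 CPM in the aged vehicle libraries and 598, 867 and 649 CPM in the young vehicle libraries: here aged GW8510 library 1 was highest, aged vehicle library 4 was the highest of its group, and young vehicle library 2 was lowest. Cox7b, another small subunit, also differed in order, with 385, 459 and 294 CPM in the aged GW8510 libraries, 305, 387 and 249 CPM in the aged vehicle libraries and 491, 530.1 and 284 CPM in the young vehicle libraries. Young vehicle libraries 2 and 3 were its highest, and young vehicle library 4 lay near the bottom of the range. Treatment estimates were 0.30 for Cox8b, 0.24 for Cox6a2 and 0.27 for Cox7b.

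Complex V had a treatment median of 0.30 over 14 genes. Atp5b had 2832, 3671 and 3118 CPM in the aged GW8510 libraries, 2421, 3063 and 2294 CPM in the aged vehicle libraries and 2469, 2739.9 and 2639 CPM in the young vehicle libraries. The smallest spread within groups among all members was that of Atp5b (SD 0.17 on the log2 scale), and aged GW8510 library 1 was still below aged vehicle library 3. Its log2 fold change was 0.31 (SE 0.19, adjusted p = 0.935) by edgeR. The central stalk subunit Atp5c1, which turns within the catalytic head, had 792, 921 and 746 CPM in aged GW8510 muscle, against 576, 839 and 572 CPM in aged vehicle muscle and 582, 661 and 663 CPM in young vehicle muscle. Atp5o, which links the head to the peripheral stalk, had 555, 684 and 473 CPM in aged GW8510 muscle, against 435, 559.6 and 353 CPM in aged vehicle muscle and 375, 514 and 482 CPM in young vehicle muscle. In both, aged vehicle library 3 lay within the aged GW8510 range, with estimates of 0.31 for Atp5c1 and 0.34 for Atp5o. Atp5a1 had 2088, 2713 and 2517 CPM in the aged GW8510 libraries, 1844, 2577 and 1584 CPM in the aged vehicle libraries and 2090.2, 2496 and 2275 CPM in the young vehicle libraries, and Atp5l, subunit g of the membrane domain, had 372, 439 and 288 CPM in aged GW8510 muscle, against 269.9, 374 and 271 CPM in aged vehicle muscle and 222, 245 and 303 CPM in young vehicle muscle. The aged groups overlapped in each. Atp5e, the small epsilon subunit of the central stalk, was named after its values were seen because it had the largest spread within groups of any member (SD 0.64 on the log2 scale). It had 371, 215 and 249.8 CPM in the aged GW8510 libraries, 158, 352 and 116 CPM in the aged vehicle libraries and 116, 274 and 165 CPM in the young vehicle libraries, with the highest library in aged GW8510 and the next highest in aged vehicle muscle, and its log2 fold change of 0.42 had an SE of 0.43.

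**Figure D4:**
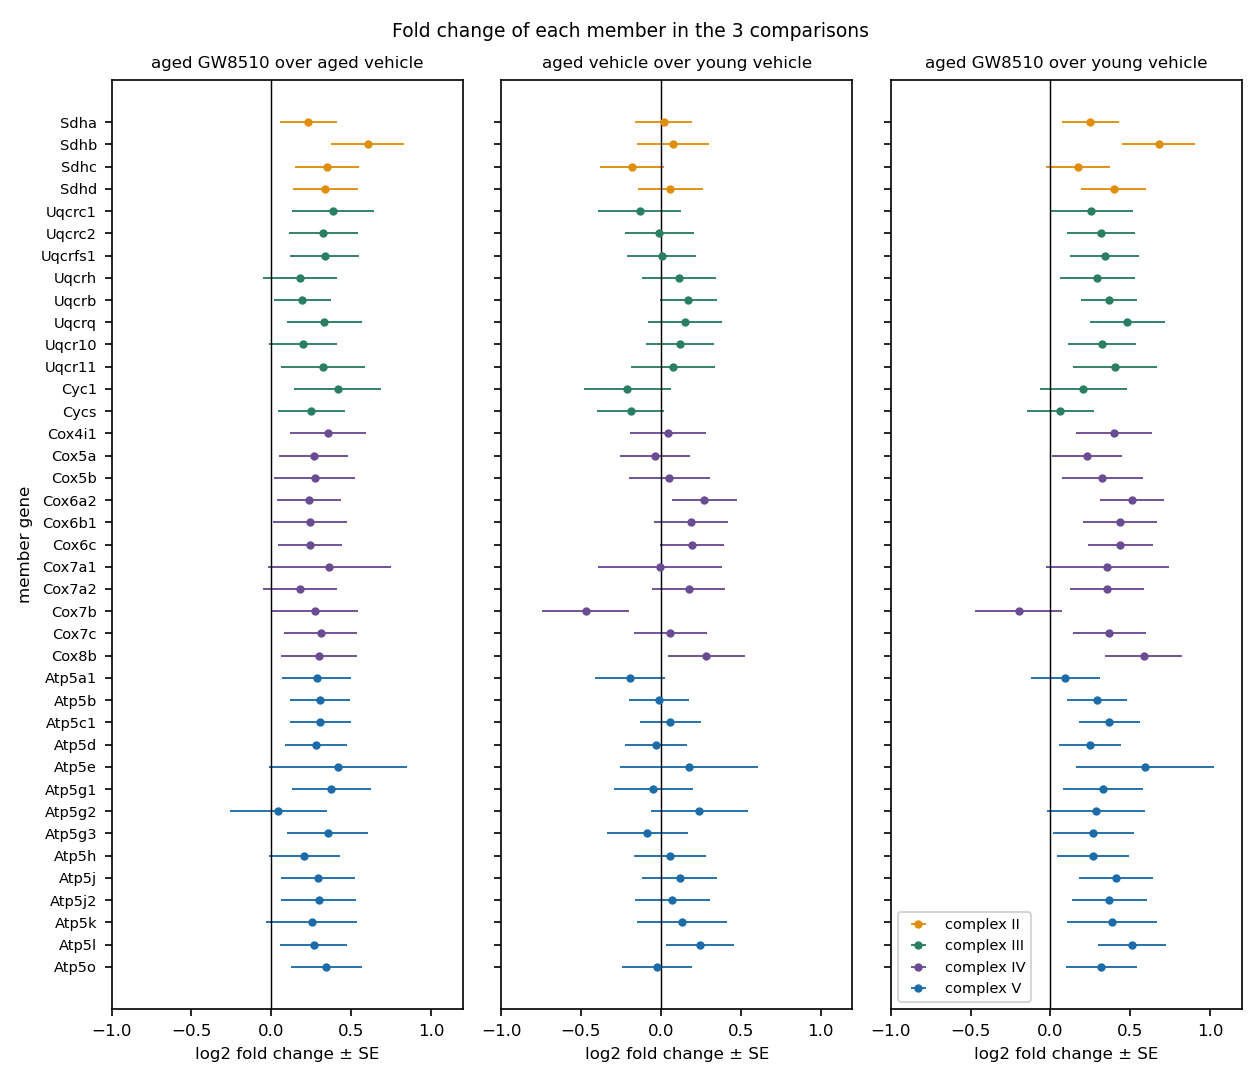
Log2 fold change with SE (x axis) of each member (rows, coloured by complex) for treatment (left, aged GW8510 over aged vehicle), age (middle, aged vehicle over young vehicle) and both (right, aged GW8510 over young vehicle). The point estimates of the left panel lie above 0, with a median of 0.30, though some SE bars cross 0 (0.04 with an SE of 0.31 for Atp5g2), those of the middle panel lie around 0, with a median of 0.06, and no member passes an adjusted p of 0.05 in any panel.

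The complexes were then set against each other within libraries. The level of a complex was the mean log2 CPM of its members, each centred on its mean over the 9 libraries. For complex II it was 0.14, 0.47 and 0.15 in the aged GW8510 libraries, -0.21, 0.19 and -0.40 in the aged vehicle libraries and -0.29, 0.05 and -0.11 in the young vehicle libraries. The level of complex III was 0.15, 0.47 and -0.00436 in the aged GW8510 libraries, -0.10, 0.26 and -0.48 in the aged vehicle libraries and -0.33, 0.04 and 0.01 in the young vehicle libraries. For complex IV it was 0.27, 0.49 and -0.13 in the aged GW8510 libraries, -0.07, 0.25 and -0.42 in the aged vehicle libraries and -0.35, 0.01 and -0.04 in the young vehicle libraries, and for complex V it was 0.27, 0.36 and 0.00148 in the aged GW8510 libraries, -0.17, 0.31 and -0.42 in the aged vehicle libraries and -0.39, 0.03 and -0.00198 in the young vehicle libraries. In each complex aged vehicle library 3 lay between the lowest and highest aged GW8510 libraries, so the aged groups overlapped. Any pair of complexes differed within a library by between -0.14 and 0.28 on the log2 scale. The pooled SD of a complex's level within groups, which includes movement shared by all complexes, was 0.23 for complex II, 0.28 for complex III, 0.29 for complex IV and 0.28 for complex V. The largest gap was in aged GW8510 library 4, where complex II exceeded complex IV by 0.28.

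**Figure D5:**
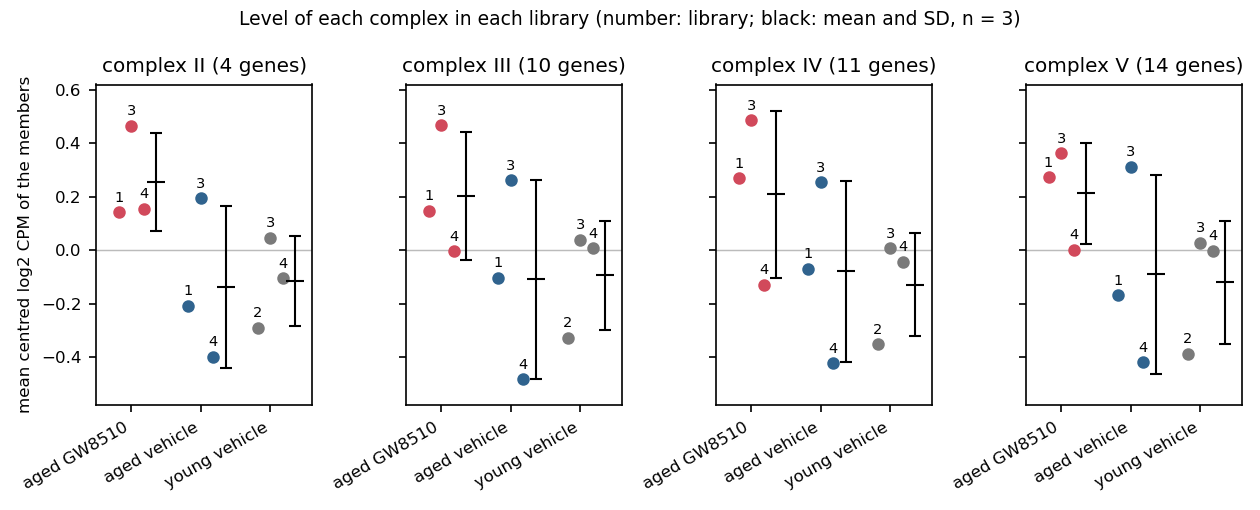
Mean centred log2 CPM of the members of each complex (y axis) in each library (coloured points with library number), with group mean and SD (n = 3, black). Aged GW8510 library 3 is the highest point in every panel, aged vehicle library 4 the lowest, and aged vehicle library 3 lies within the range of the aged GW8510 libraries.

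The members were also split by deposited transcript length at 1000 bases, a choice made after the values were seen. The 14 longer members, among them all of complex II, were compared with the 25 shorter ones, among them 10 of the 11 complex IV genes. The level of the longer minus that of the shorter members was -0.20, -0.0047 and 0.16 in the aged GW8510 libraries, -0.13, -0.10 and -0.04 in the aged vehicle libraries and 0.22, 0.15 and -0.06 in the young vehicle libraries. Over all genes tested, the same difference between 13077 longer and 1337 shorter genes was -0.31, -0.14 and 0.15 in the aged GW8510 libraries, -0.08, -0.08 and -0.07 in the aged vehicle libraries and 0.38, 0.07 and 0.09 in the young vehicle libraries. Longer transcripts were above shorter ones, both among members and among all genes, in aged GW8510 library 4 and young vehicle libraries 2 and 3. The opposite held in aged GW8510 libraries 1 and 3 and in all 3 aged vehicle libraries, and young vehicle library 4 differed in sign between members and all genes. Lengths are uncertain for Atp5g1, listed at 4715 bases although its counts per TPM lie below those of the 723-base Atp5g3, and Cox7b is listed at 1001 bases. With these 2 genes among the shorter members the difference was -0.22, 0.01 and 0.23 in the aged GW8510 libraries, -0.10, -0.08 and -0.05 in the aged vehicle libraries and 0.15, 0.09 and -0.03 in the young vehicle libraries, so only the near-zero value of aged GW8510 library 3 changed sign. The part of length in the members' differences was not tested.

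The age comparison shares its aged vehicle libraries with the treatment comparison, so its values are given on their own. No member passed: 0 of 39 had an adjusted p under 0.05 for aged vehicle over young vehicle by edgeR, against 1.21% of all genes, and DESeq2 and limma-voom called 0. None reached an unadjusted p under 0.05 either, against 19.2% of all genes, and in none did all aged vehicle libraries lie above all young vehicle libraries, against 12.7%. Log2 fold changes were above 0 for 25 members and below 0 for 14, with 51.2% of all genes above 0. The median was 0.06, and the complex medians were 0.04 for II and III and 0.06 for IV and V. This direction rested on single libraries. Without aged vehicle library 3, 7 members were above 0, without young vehicle library 2, 9 were, and without aged vehicle library 4, 35 were.

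Cox7b had the most negative estimate with age, -0.47 (SE 0.27, adjusted p = 0.364) by edgeR, and Cox8b the most positive, 0.28 (SE 0.24, adjusted p = 0.536). Cox7b averaged 314 ± 69.6 CPM in the aged vehicle libraries, against 435 ± 132 CPM in the young ones (SD, n = 3 each), and its groups overlapped because young vehicle library 4 was lower than aged vehicle libraries 1 and 3. Cox8b averaged 248 ± 62.2 CPM in the aged vehicle libraries, against 204 ± 32.9 CPM in the young ones, and aged vehicle library 4 lay among the young values. Cox6a2, the muscle form of subunit 6a, had an estimate of 0.27 (SE 0.20). In complex II the smallest p was that of Sdhc, at -0.18. In complex III the smallest were those of Uqcrb at 0.17, Cycs at -0.19 and Cyc1 at -0.21. In complex V they were those of Atp5l at 0.25, Atp5a1 at -0.19 and Atp5g2 at 0.24. The smallest adjusted p of any member was 0.364.

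Aged GW8510 muscle was also compared with young vehicle muscle, a comparison that shares its libraries with those above. By edgeR 0 of 39 members passed an adjusted p of 0.05, against 0.749% of all genes, and DESeq2 and limma-voom called 0. At an unadjusted p under 0.05 there were 4 members, Sdhb, Cox6a2, Cox8b and Atp5l, against 16.7% of all genes. In 5 members every aged GW8510 library was above every young vehicle library (Sdhb, Sdhd, Uqcrq, Atp5b and Atp5c1), against 12.9% of all genes. Both counts by edgeR are near or below the share among all genes. In the authors' deposited table for the same groups, 12 of 39 members had an unadjusted p under 0.05, against 20.0% of the 14414 genes. Estimates were above 0 for 38 members, against 51.3% of all genes, and below 0 for Cox7b at -0.20. The median was 0.34, with complex medians of 0.32 for II, III and V and 0.37 for IV. Without aged GW8510 library 3 and aged vehicle library 4 the median was 0.22, with 37 members above 0.

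Sdhb again had the largest estimate, 0.68 (SE 0.23, adjusted p = 0.173) by edgeR, with means of 572 ± 128 CPM in aged GW8510 and 358 ± 61.7 CPM in young vehicle muscle (SD, n = 3 each). In the authors' deposited table for this pair of groups, Sdhb had a log2 ratio of 0.68 and an adjusted p of 0.0191, the only member under 0.05 there, and it was not among the 729 genes marked significant. DESeq2 run here on all 9 libraries gave Sdhb an adjusted p of 0.0706. The authors' deposited tables marked 0 members in any of the 3 comparisons, against 6 genes marked for aged GW8510 over aged vehicle and 653 for aged vehicle over young vehicle. Of the 39 members, 39, 27 and 38 had a log2 ratio above 0 in the authors' deposited tables for treatment, for age and for aged GW8510 against young muscle, in that order.

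Isoform choice was examined as a ratio of counts within a library, which does not depend on scaling between libraries. The log2 ratio of Cox7a1 over Cox7a2 was 0.20, 0.59 and 0.52 in the aged GW8510 libraries, 0.44, 0.51 and -0.58 in the aged vehicle libraries and 0.34, 0.34 and 0.61 in the young vehicle libraries. Aged vehicle library 4 was the only library with a count ratio below 0 on the log2 scale. Per length the muscle form was the higher in each library, with 572 TPM for Cox7a1 and 295 TPM for Cox7a2 in aged vehicle library 4. In CPM, Cox7a1 had 174, 260.5 and 155 CPM in the aged GW8510 libraries, 169, 221 and 67.5 CPM in the aged vehicle libraries and 113, 162 and 186 CPM in the young vehicle libraries, so this library held the lowest value by far, and Cox7a2 had 151, 173 and 108 CPM in aged GW8510 muscle, against 125, 156 and 101 CPM in aged vehicle muscle and 89.1, 127 and 122 CPM in young vehicle muscle. Cox6a1, the widely expressed partner of Cox6a2, had 27.6, 38.2 and 24.6 CPM in the aged GW8510 libraries, 19.3, 29.3 and 17.6 CPM in the aged vehicle libraries and 23.2, 21.8 and 21.3 CPM in the young vehicle libraries. The log2 ratio of Cox6a2 over Cox6a1 was 5.40, 4.75 and 5.05 in the aged GW8510 libraries, 5.30, 4.90 and 5.69 in the aged vehicle libraries and 4.69, 5.31 and 4.93 in the young vehicle libraries, and the groups overlapped. Cox8a, the partner of Cox8b, had 36.4, 41.2 and 32.0 CPM in the aged GW8510 libraries, 25.5, 34.1 and 27.6 CPM in the aged vehicle libraries and 20.0, 28.2 and 26.8 CPM in the young vehicle libraries. The log2 ratio of Cox8b over Cox8a was 3.23, 3.08 and 2.82 in the aged GW8510 libraries, 3.38, 3.13 and 2.69 in the aged vehicle libraries and 3.10, 2.84 and 3.14 in the young vehicle libraries.

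Cox4i2, an oxygen-responsive partner of Cox4i1, had 2.59, 3.50 and 2.80 CPM in the aged GW8510 libraries, 2.00, 3.35 and 0.65 CPM in the aged vehicle libraries and 1.74, 1.90 and 1.64 CPM in the young vehicle libraries. Its low level made the log2 ratio of Cox4i1 over Cox4i2 the largest, with 8.20, 8.25 and 7.88 in the aged GW8510 libraries, 8.22, 7.96 and 9.56 in the aged vehicle libraries and 8.25, 8.48 and 8.66 in the young vehicle libraries. The aged GW8510 libraries all lay below the young vehicle libraries, though aged GW8510 library 3 and young vehicle library 2 were both at 8.25 when rounded, a mean difference of -0.36 with an exact two-sided permutation p = 0.10 (n = 3 each). In the 7 pairs and 3 comparisons tested, 21 in all, the smallest exact p was 0.10, the smallest that 3 against 3 allows, reached also with age by Atp5g2 over Atp5g3 and Atp5g1 over Atp5g2, and Benjamini-Hochberg adjusted p ran from 0.70 to 1. The design therefore could not reach 0.05 for these ratios.

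Subunit c forms the rotating ring in the membrane, and its 3 genes give the same mature protein behind different import sequences. Atp5g1 had 728, 729 and 464 CPM in the aged GW8510 libraries, 421, 624 and 435 CPM in the aged vehicle libraries and 390.1, 583 and 557 CPM in the young vehicle libraries. Atp5g3 had 569, 779.5 and 546 CPM in the aged GW8510 libraries, 463, 670.5 and 349 CPM in the aged vehicle libraries and 435, 576 and 561 CPM in the young vehicle libraries. Atp5g1 was lowest in young vehicle library 2 and Atp5g3 in aged vehicle library 4, and in both the aged groups overlapped. Of the subunit c TPM, Atp5g1 made up 51.2% to 61.7% and Atp5g3 37.3% to 48.0% over the 9 libraries. Shares of the subunit c TPM given here leave out pseudogene copies of Atp5g1 and Atp5g2, so they are uncertain. Log2 ratios of Atp5g1 over Atp5g3 were 0.36, -0.10 and -0.23 in the aged GW8510 libraries, -0.14, -0.10 and 0.32 in the aged vehicle libraries and -0.16, 0.02 and -0.01 in the young vehicle libraries. Aged GW8510 library 1 and aged vehicle library 4 were the libraries with clearly more Atp5g1 counts. Atp5g2, the gene whose upstream region holds the NRF1 palindrome shown above, had 15.9, 6.90 and 9.66 CPM in the aged GW8510 libraries, 9.97, 13.3 and 8.23 CPM in the aged vehicle libraries and 7.11, 9.43 and 10.1 CPM in the young vehicle libraries, or 0.389% to 1.01% of the subunit c TPM.

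The level of Atp5g2 is uncertain because a transcribed pseudogene, Gm10175, is identical to it over 645 aligned bases and was assigned more of the counts. Gm10175 had 354, 296 and 218 CPM in the aged GW8510 libraries, 226, 260.1 and 302 CPM in the aged vehicle libraries and 168, 225 and 214 CPM in the young vehicle libraries. Reads of the gene and of this copy cannot be told apart over the identical stretch. With copies added, Atp5g2 had 174.8 to 369.5 CPM over the 9 libraries, beside 404 to 799 CPM for Atp5g1. With the copies added, Atp5g2 had a log2 fold change of 0.13 for aged GW8510 over aged vehicle, beside 0.04 alone, and of 0.37 for aged vehicle over young vehicle, beside 0.24. Atp5g1 has a copy, Gm10039, with 0, 69.6 and 39.2 CPM in the aged GW8510 libraries, 40.3, 61.1 and 0 CPM in the aged vehicle libraries and 14.1, 0.042 and 0 CPM in the young vehicle libraries. The copy was thus at or near 0 in 4 libraries and above 14 CPM in the others. Adding it changed the sign of the Atp5g1 estimate with age to 0.03, beside -0.05, and neither passed. Cycs shares 946 bases at 99.9% identity with Gm10053 (mean 239 CPM, beside 445 for Cycs), and Atp5l shares 309 identical bases with Gm10221 (mean 110.3 CPM, beside 310 for Atp5l), so both levels are uncertain. Exons of Atp5j, Cox4i1, Cox6c and Atp5a1 overlap genes on the opposite strand (Gabpa, Emc8, Vps13b and Haus1), each at 35.4 CPM or less in every library, and the other opposite-strand overlaps involve genes at 1.77 CPM or less. A second gene entry named Atp5o had 0 counts, and the entry with counts was used.

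The other genes of the pathway gave no call either. For aged GW8510 over aged vehicle, 37 of 37 nuclear-encoded complex I subunits had estimates above 0, with a median of 0.24. Assembly factors of complexes II to V, which build the complexes without staying in them, had 22 estimates above 0 and 16 below among 38 tested of 39, with a median of 0.03. Among the mitochondrially encoded subunits of complexes III to V, 5 of 6 were tested and all 5 were above 0, with a median of 0.32. The sixth, mt-Atp6, is listed at 0 in every library, although its neighbour mt-Atp8 had 343 to 737 CPM. Subunits and isoforms outside the member list had 7 estimates above 0 and 2 below among 9 tested of 14, with a median of 0.24. Cytosolic ribosomal protein genes, another set of short abundant transcripts, had 44 above 0 and 38 below among 82 tested of 88, with a median of 0.01.

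For aged vehicle over young vehicle the median was 0.04 in complex I, 0.12 in the assembly factors, 0.35 in the mitochondrially encoded subunits, 0.19 in the other subunits and 0.47 in the ribosomal protein genes, beside 0.06 in the members. Of the ribosomal protein genes, 65 of 82 had all aged vehicle libraries above all young vehicle libraries, and 0 of the 39 members did, against 12.7% of all genes. By edgeR the smallest adjusted p in these lists was 0.0842, for a ribosomal protein gene, and 0.0916 for the assembly factor Coa4 and for Atp5s, a factor linked to complex V, so none passed. Coa4 and Atp5s were named after their values were seen. Coa4 had 9.22, 9.21 and 5.65 CPM in the aged GW8510 libraries, 7.38, 9.94 and 16.2 CPM in the aged vehicle libraries and 4.51, 4.95 and 5.50 CPM in the young vehicle libraries. Its aged vehicle libraries were all above its young vehicle libraries, with a log2 fold change of 1.16. Atp5s had 14.6, 13.9 and 10.9 CPM in the aged GW8510 libraries, 13.8, 13.8 and 14.9 CPM in the aged vehicle libraries and 9.47, 8.59 and 9.95 CPM in the young vehicle libraries, also with no overlap between aged vehicle and young vehicle muscle, and a log2 fold change of 0.60.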

How the data were processed

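Estimated counts and TPM per gene and library were deposited by the authors in 3 tables, 1 for each pair of groups, with a log2 ratio, a p-value and a fold ratio (the fold ratio was not used). The submitters' processing notes name GRCm38, CASAVA, HISAT2, StringTie, RSEM, DESeq2 and edgeR, without versions, and strand and annotation are not given in the sources used here. Of the counts, 91.4% were whole, and all were rounded. Counts of 1 library did not differ between tables.

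All 9 libraries entered 1 fit with a mean per group: filterByExpr, TMM factors and the quasi-likelihood F test of edgeR 4.0.16 (R 4.3.3), two-sided, with Benjamini-Hochberg adjustment over 14414 genes and a threshold of 0.05. SEs are derived from each log2 fold change and its F value. Log2 levels used a prior count of 2. DESeq2 1.42.0 and limma 3.58.1 (voom) were alternatives. Isoform ratios had 1 count added and an exact permutation test over libraries (scipy 1.17.1). Near-identical copies are genes with at least 95% identity over at least 200 bases (BLAST 2.17.0, GENCODE M21 transcripts). A floor of 3 counts is 0.103 to 0.136 CPM, for counting error only. The fit was tested on simulated data.

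The members and all lists were chosen with earlier results of these data known. Given with every library's value are, in each complex, the 3 members with the smallest p in the age comparison and in the treatment comparison, and the isoform pairs. Others are exceptions that the text says were chosen after their values were seen, or list members.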

Additional observations from a re-analysis of the deposited data

How the results depend on the processing

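In all alternatives run, 0 members passed an adjusted p of 0.05 in any comparison. These were other size factors, library totals without TMM, no filter, DESeq2, limma-voom, only the 6 libraries compared, a replicate block, merged copies, and each library left out in turn. Merged copies, and leaving out aged GW8510 library 3 and aged vehicle library 4 together, were chosen after seeing the data. Without those 2 libraries the treatment median was 0.0058 over all members, 0.10 in complex II, -0.0069 in III, -0.02 in IV and 0.05 in V, with 22 members above 0. At an unadjusted p under 0.05 there were then 0 members for treatment, against 314 of 14838 genes. For aged GW8510 over young vehicle there was 1, against 2378 of 14838 genes. Members above 0 for treatment numbered 38 on library totals, by limma-voom and with the block, and 36 to 39 with single libraries left out. Members above 0 with age then ranged from 7 to 35. With single libraries left out, members at an unadjusted p under 0.05 ranged from 0 to 16 for treatment and 0 to 1 for age. The range was 0 to 9 for aged GW8510 over young vehicle. Among all genes tested in those fits (14699 to 14881), the ranges were 348 to 1527, 2000 to 3362 and 1633 to 3216, in that order. The fit of 6 libraries for aged GW8510 over young vehicle had 7 of 39 members at that level, against 2864 of 14010 genes. The cause was not tested.

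Whether library numbers pair the samples is not stated, and 7 same-number correlations of deviations from 3-library means cannot decide it. Correlations of deviations ran from -0.21 to 0.14 for the same number and from -0.23 to 0.27 for different ones, and 1 of 9 libraries correlated best with its own number. With the number as a replicate block, young vehicle library 2, the only library of that number, had a term of its own. In effect this took that library out of the fit. With the block, 10 members were above 0 with age. For aged GW8510 over young vehicle 1 member had an unadjusted p under 0.05, against 1643 of 14414 genes. Calls over all genes then numbered 5 with age, against 175 without the block, and 10 for aged GW8510 over young vehicle, against 108. With 3 libraries a group, SEs of 0.18 to 0.43 limit what could pass, and the spread between libraries exceeded counting error. Over all genes DESeq2 called 10 for treatment, 973 for age and 869 for aged GW8510 over young vehicle, against 0, 175 and 108 by edgeR.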
